A study of Drosophila melanogaster with 6 samples.

Results

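The genes described here are 7 ion channel genes of Drosophila melanogaster, measured by RNA-seq in brains of wandering larvae. They were chosen by CG number: para (CG9907), tipE (CG1232), cac (CG1522), Ca-alpha1D (CG4894), Ca-alpha1T (CG15899), na (CG1517) and Ih (CG8585). They account for 30 of the 21081 transcripts and 7 of the 14012 genes in the deposited tables. The study compared 3 groups of 2 samples, each sample a pool of brains from larvae reared at 25 °C. Control larvae had the genotype w, E347-GAL4/w1118, with pools of 100 and 86 brains. Activation larvae were w, E347-GAL4/yw with UAS-NachBac on the third chromosome, with pools of 100 and 97 brains, and the tables call this group induction. Ablation larvae carried w, E347-GAL4 over a yw chromosome with UAS-ShiDN, plus UAS-ShiDN/+ on the second chromosome, with pools of 100 and 91 brains. All larvae therefore carried the E347-GAL4 driver, and the transgenes act in the neurons that this driver marks, while the RNA came from whole brains. The control larvae had a w1118 chromosome where the other groups had yw, so this background and the transgenes cannot be told apart. NachBac, a sodium channel taken from a bacterium, raises the excitability of neurons that express it, and ShiDN blocks dynamin, the product of shibire, in a manner that the series describes as ablating the neurons. The NachBac transgene itself was not analysed here.

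Voltage-gated sodium and calcium channels open when the membrane depolarises. In fly neurons sodium entry carries the action potential, and calcium entry at the terminal triggers transmitter release. para encodes the pore-forming subunit of the main sodium channel, and tipE encodes a membrane protein that raises the current through it. cac encodes the pore of the presynaptic calcium channel, Ca-alpha1D that of an L-type channel of neurons and muscle, and Ca-alpha1T that of a low-voltage-activated T-type channel. The products of na and Ih are relatives with other gating: na encodes a sodium leak channel that sets resting excitability and supports daily rhythms, and Ih encodes a cation channel opened by hyperpolarisation. Long genes of this kind are spliced into many transcripts, and in the deposited annotation cac had 10, Ih 7, para and Ca-alpha1D 4 each, tipE and Ca-alpha1T 2 each and na 1.

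The files give 1 value per group in each of 3 pairwise tables, in FPKM (a read count scaled to the length of the transcript and the size of the library), so no value per sample and no spread between samples can be set beside a level. Each group stands in 2 tables with slightly different scaling. Member transcripts of at least 1 FPKM in both tables differed by 1.02 to 1.03 times for control, 1.01 to 1.02 times for ablation and 0.989 to 0.997 times for activation. A gene sum is the total FPKM over the transcripts with 1 CG number. The test is the Cuffdiff test that the authors ran over the 2 samples of each group, and a transcript is called at a deposited q of at most 0.05. Nothing in the labels says whether the 2 pools of a group came from separate crosses, so these p-values rest on pools that may share a cross. They come from Cuffdiff's model and are not a direct measure of the spread between the 2 pools. In bulk brain RNA, fewer cells of a type and less RNA per cell cannot be told apart.

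The brain label was checked with marker genes. The 5 neuron markers (elav, nSyb, Syt1, fne and Syn) summed to 368 to 377 FPKM in control, 473 to 477 FPKM in activation and 452 to 459 FPKM in ablation, the 2 ends being the 2 tables. The 5 glia markers (repo, nrv2, Gs2, Eaat1 and moody) summed to 549 to 564 FPKM, 512 to 515 FPKM and 729 to 739 FPKM in the same order. RNA of other tissues was present in unequal amounts. The 7 muscle markers summed to 63.3 to 65.04 FPKM in control, 32.8 to 32.9 FPKM in activation and 68.1 to 69.4 FPKM in ablation, and none of them was at 0. The 6 fat body markers summed to 134 to 137 FPKM, 44.7 to 44.9 FPKM and 399 to 407 FPKM, and the 6 midgut markers to 7.04 to 7.21 FPKM, 2.82 to 2.83 FPKM and 1210 to 1234 FPKM. Of the midgut markers, Jon74E and betaTry were listed at 0 in control, and LysD, LysB, betaTry and epsilonTry in activation. The 3 haemocyte markers summed to 12.4 to 12.7 FPKM, 7.99 to 8.04 FPKM and 9.90 to 10.06 FPKM. Fat body and midgut markers were thus lowest in activation and highest in ablation, and their part in the channel values below was not tested.

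All 7 genes were detected in all 3 groups, and their levels spanned a wide range. In control, the order of the gene sums from high to low was Ih at 27.7 FPKM, na at 12.1 FPKM, tipE at 10.8 FPKM, cac at 9.27 FPKM, Ca-alpha1T at 3.73 FPKM, para at 2.08 FPKM and Ca-alpha1D at 1.74 FPKM. FPKM is scaled to the length of the listed transcripts, so this order holds only as far as their models are complete, which was not tested. Without values per sample, no neighbours in this order can be told apart by their spread. In activation, Ih and na again led with 14.9 FPKM and 10.2 FPKM, and Ca-alpha1T stood last at 2.08 FPKM. In ablation, Ih and na led with 23.7 FPKM and 15.9 FPKM, para and Ca-alpha1D had 4.35 FPKM and 4.11 FPKM, and Ca-alpha1T was last at 3.28 FPKM. The main neuronal sodium channel gene was therefore listed below its auxiliary gene tipE in each group.

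**Figure D1:**
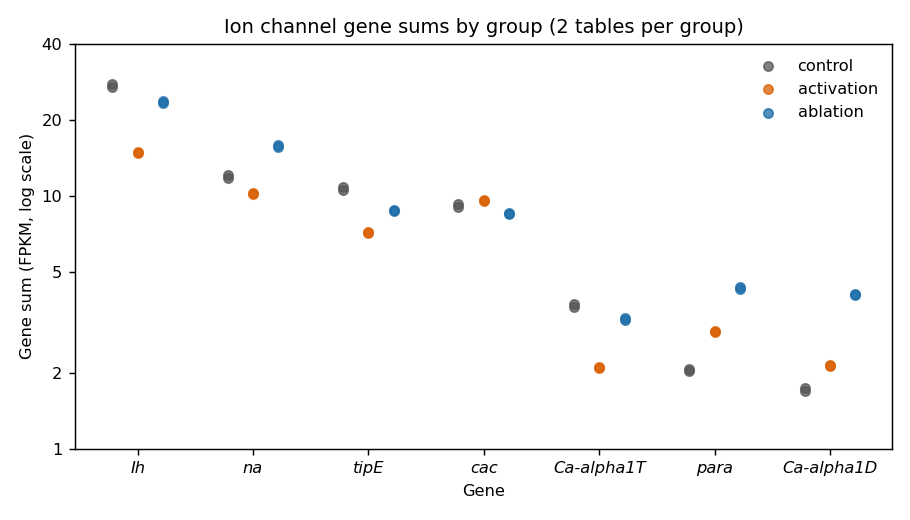
Gene sums in FPKM (log axis) of the 7 channel genes in control, activation and ablation. Each group has 2 points, its values in 2 tables, which are the same samples scaled differently and not replicates. Ih is highest in each group, from 14.9 FPKM in activation to 27.7 FPKM in control.

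Against control, ablation brains had higher gene sums of para and Ca-alpha1D, and the other members lay closer to their control level. No channel transcript passed the test: 0 of the 16 tested member transcripts were called, where 0.154% of all 11676 tested transcripts were. At an unadjusted p under 0.05 the members again counted 0 of 16, against 2.05% of all tested transcripts, and their lowest p was 0.0993, that of Ih RH. The other 14 member transcripts were not tested. Of the 7 gene sums 3 were higher in ablation and 4 lower, where 56.7% of the 8803 genes with at least 1 FPKM in either group were higher. Of the 7 genes 2, para and Ca-alpha1D, were at least 1.5-fold higher, a share near the 28.1% of all genes that were. At least 1.5-fold lower were 0 of the 7, against 13.8% of all genes. The median change over the members on the log2(FPKM + 1) scale was -0.10, and that over the same 8803 genes was 0.11.

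In the sodium channel group, the para gene sum was 2.08 FPKM in control against 4.35 FPKM in ablation, a ratio of 2.09. The 1 tested para transcript, RD, had p = 0.163 (q = 0.974) in the authors' deposited table. The tipE gene sum went the other way in value, with 10.8 FPKM in control against 8.81 FPKM in ablation. Its tested transcript RB had q = 0.979 in the authors' deposited table. The leak channel gene na, with 1 transcript, had 12.1 FPKM in control against 15.9 FPKM in ablation, a ratio of 1.31 (q = 0.974 in the authors' deposited table). In dm3, the build the submitters' processing notes name, the locus of para lies on X from 16357638 to 16421448, that of tipE on 3L from 4173853 to 4193788, and that of na on X from 14161686 to 14170664.

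Among the calcium channel genes, Ca-alpha1D had the highest ratio of the 7 members. Its gene sum was 1.74 FPKM in control against 4.11 FPKM in ablation, a ratio of 2.37, and the lowest q of its 3 tested transcripts was 0.974 in the authors' deposited table. Ca-alpha1D is also a muscle gene. The 7 muscle markers summed to 65.04 FPKM in control against 69.4 FPKM in ablation. Of them 5 had higher values in ablation and 2 lower, with a median log2 change of 0.25. Of the 5 higher, Mhc, bt and sls were under 1 FPKM in control. The 2 lower, Tm2 and up, were at 10.6 FPKM and 13.1 FPKM in control. The part of muscle RNA was not tested. The presynaptic channel gene cac had a gene sum of 9.27 FPKM in control against 8.60 FPKM in ablation, and the T-type gene Ca-alpha1T had 3.73 FPKM and 3.28 FPKM. Both lay close to control, with changes of -0.10 and -0.14 on the log2(FPKM + 1) scale. Ih, the hyperpolarisation-activated channel gene, had 27.7 FPKM in control against 23.7 FPKM in ablation. The loci in dm3 are X from 11827719 to 11875209 for cac, 2L from 16170657 to 16190086 for Ca-alpha1D, X from 6001086 to 6040199 for Ca-alpha1T and 2R from 10166938 to 10186413 for Ih.

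Against control, activation brains had lower values of Ih, Ca-alpha1T and tipE, while para and Ca-alpha1D were higher in value by less than in ablation. No member was called: 0 of 12 tested member transcripts passed, where 0% of all 11809 tested transcripts did. At an unadjusted p under 0.05 there was 1 of 12, against 3.05% of all tested transcripts. Of the 7 gene sums 3 were higher and 4 lower in activation, where 56.9% of 8771 genes with at least 1 FPKM in either group were higher. Of the 7 genes 2 were at least 1.5-fold lower, against 13.8% of all genes, and 0 were at least 1.5-fold higher, against 27.9%. The median change over the members was -0.20 on the log2(FPKM + 1) scale, and that over the 8771 genes was 0.11.

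The 2 genes past 1.5-fold were Ih and Ca-alpha1T. The Ih gene sum was 26.9 FPKM in control against 14.9 FPKM in activation, a ratio of 0.552, and the lowest p of its 4 tested transcripts was 0.122 in the authors' deposited table. Ca-alpha1T had 3.63 FPKM in control against 2.08 FPKM in activation, a ratio of 0.574, with p = 0.278 and q = 0.915 for its RB transcript in the authors' deposited table. No transcript of either gene was called, and the gene sums themselves were not tested. The tipE gene sum was 10.5 FPKM in control against 7.17 FPKM in activation, and na had 11.8 FPKM and 10.2 FPKM. The para gene sum was 2.03 FPKM in control against 2.90 FPKM in activation, a ratio of 1.43, and that of cac was 9.06 FPKM and 9.58 FPKM, a ratio of 1.06. The cac value lies below the median change of all genes, so its direction turns when changes are centred on that median (from 0.07 to -0.03 on the log2 scale). Ca-alpha1D had gene sums of 1.70 FPKM and 2.13 FPKM, a ratio of 1.25, and the 1 member transcript with a low p, RD, belongs to this gene and is described with the transcripts below.

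Set directly against each other, the manipulations differed in the values of most channel genes, with ablation higher than activation for 6 of the 7 gene sums and cac the exception. No member was called: 0 of 19 tested member transcripts passed, where 0.37% of all 12419 tested transcripts did. At an unadjusted p under 0.05 there was 1 of 19, against 3.21% of all tested transcripts. Of the 9011 genes with at least 1 FPKM in either group 51.1% were higher in ablation. Of the 7 members 4 were at least 1.5-fold higher in ablation, against 11.1% of all genes, and 0 were at least 1.5-fold lower, against 9.89%. The members' median was 0.45 on the log2(FPKM + 1) scale, and that of the 9011 genes was 0.01. These 3 comparisons share their groups in pairs, so they are not independent of each other.

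The 4 genes were Ca-alpha1D, Ih, Ca-alpha1T and na. The L-type channel gene Ca-alpha1D had 2.15 FPKM in activation against 4.06 FPKM in ablation, a ratio of 1.89. Ih had 15.0 FPKM and 23.4 FPKM, a ratio of 1.56, and Ca-alpha1T had 2.10 FPKM and 3.25 FPKM, a ratio of 1.55. None of these genes had a called transcript. The leak channel gene na had 10.3 FPKM in activation against 15.7 FPKM in ablation, a ratio of 1.53, with p = 0.054 (q = 0.999) in the authors' deposited table. The para gene sum was 2.92 FPKM and 4.29 FPKM, a ratio of 1.47, tipE had 7.23 FPKM and 8.70 FPKM, and cac had 9.65 FPKM and 8.49 FPKM. In this comparison all 7 muscle markers, all 6 fat body markers and all 6 midgut markers also had higher values in ablation, as did 4 of 5 neuron markers and 4 of 5 glia markers. The part of these markers in the channel values was not tested.

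In para, cac, Ca-alpha1D and Ih, some single transcripts changed more in value than the gene sum did. A shift in transcript makeup was measured as the share of the gene sum that stood on different transcripts in 2 groups, where 0% means the same makeup and 100% means no transcript in common. This measure was added after the values were seen, and it has no test because each group has 1 value. All 4 members with 4 or more transcripts (para, cac, Ca-alpha1D and Ih) exceeded the median of all such genes in each comparison, and 3, 1 and 4 of them exceeded the upper quartile in ablation against control, activation against control and ablation against activation. By its definition 25% of the genes exceed that quartile. Those genes were not matched to the members by level, or by number of transcripts beyond the minimum of 4. In ablation against control cac passed it narrowly, with 50.0% beside 48.2%. The cac shifts against control rest on FPKM values that its deposited fold changes do not match, as described below, so its place in these counts is uncertain. The medians were 29.0% over 719 genes, 29.3% over 720 genes and 20.8% over 736 genes with 4 or more transcripts and at least 1 FPKM in both groups. The leading transcript differed in 2 of the 6 members with several transcripts in ablation against control, in 1 of 6 in activation against control and in 2 of 6 in ablation against activation. Over all genes with 2 or more transcripts and at least 1 FPKM in both groups it differed in 24.8%, 25.1% and 17.9%.

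**Figure D2:**
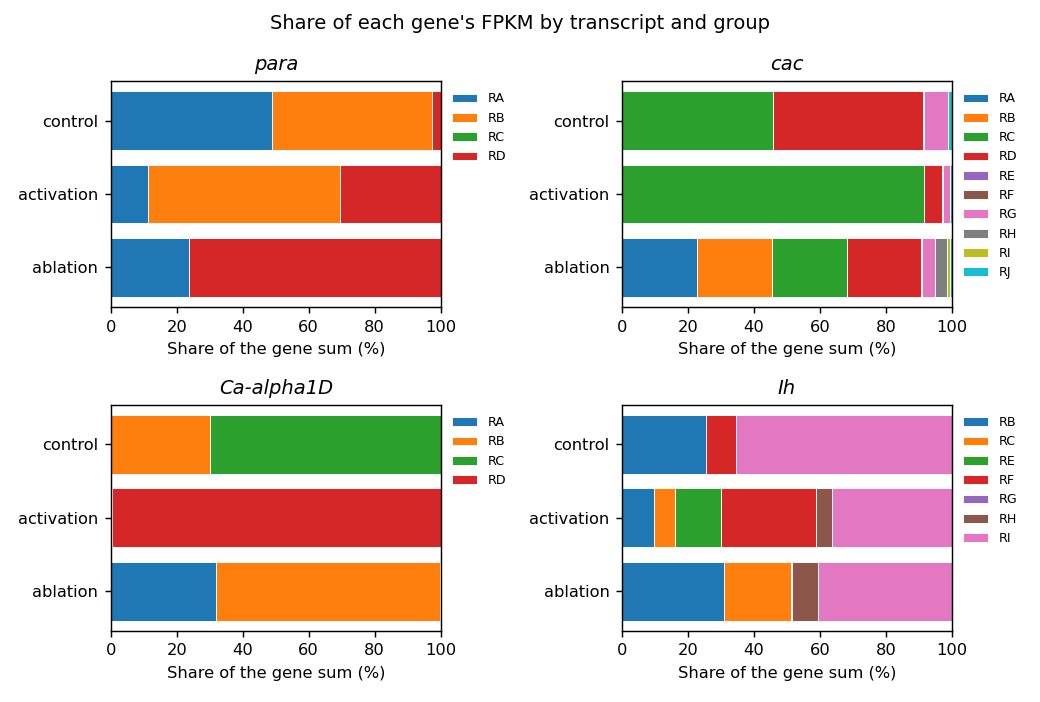
Share of the gene sum (%) held by each transcript of para, cac, Ca-alpha1D and Ih in control, activation and ablation, 1 bar per group, from the tables with control. Ca-alpha1D is almost all RC and RB in control, RD in activation, and RB and RA in ablation.

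In both comparisons with activation, Ca-alpha1D had the largest shift of the 4 genes, and in ablation against control it moved by 70.0%, less than para. In control, RC held 70.0% of its gene sum and RB 30.0%, with values of 1.21 FPKM and 0.521 FPKM. In activation, RD held 99.8%, at 2.12 FPKM, while RC was listed at 0 and RB was at 0.00086 FPKM. The makeup thus moved by 99.95% between control and activation, while the gene sums were 1.70 FPKM and 2.13 FPKM. In ablation, RB held 68.2% and RA 31.7%, at 2.81 FPKM and 1.31 FPKM, with RC listed at 0 and RD at 0.00196 FPKM. By the listed values each group therefore had its own leading transcript of this L-type channel gene. How reads were assigned among its transcripts was not tested. None of its 4 transcripts has an entry of the same name in the later BDGP6 annotation, which is used below for transcript lengths, so their lengths and overlaps are not given. RD in activation against control had p = 5e-05, the smallest p in the tables, with q = 0.0537 in the authors' deposited table, so it missed the threshold. Its control value was 0.00010 FPKM, and its test statistic (a score) was only 0.0748 in the authors' deposited table. Against ablation, where RD was also near 0, RD had a statistic farther from 0, at -0.316, yet p = 0.213 in the authors' deposited table. The low p of RD thus stands beside a small statistic, and what sets this p was not tested. RC, listed at 0 in activation and in ablation, had q = 0.915 and q = 0.974 against control in the same authors' deposited table.

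Whether RD passed depended on the adjustment. Adjusted over the 35904 tests of all 3 tables together, q was 0.0268, which would pass, and at a threshold of 0.1 it would pass in its own table, as 0.0931% of all tested transcripts did. The smallest p was shared by 11 transcripts of its own table, and q in that table would pass only with 12 of them.

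In para, the sodium channel gene, the makeup moved by 73.7% between control and ablation and by 37.6% between control and activation. In control, RA and RB had the same value of 1.01 FPKM, each 48.8% of the gene sum, and RD was at 0.0514 FPKM. In ablation, RD was at 3.31 FPKM, or 76.2% of the gene sum, RA was at 1.03 FPKM and RB at 0.00134 FPKM. In the listed values, the higher gene sum of para in ablation thus stood on RD, since RA was near its control value and RB was below it. How reads were divided among these transcripts was not tested. In activation, RB held 58.3% of the gene sum at 1.69 FPKM, RD 30.6% at 0.886 FPKM and RA 11.1% at 0.322 FPKM. In the authors' deposited table RB had q = 0.935 against control, and in ablation against activation the q of RA, RB and RD was 0.999 in the authors' deposited table. RC stayed under 0.001 FPKM in each group.

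The para transcripts share most of their bases. In the BDGP6 annotation, a later build that was used here only for lengths, para RA, RB and RC are each 6849 bases long with 31 exons, and RD is 6798 bases long with 30 exons. RA and RB share 6726 bases, and each has 123 bases that the other lacks. RB and RD share 6560 bases. The transcripts with equal values in control thus differ over a short stretch, in a gene with a sum of 2.08 FPKM. That annotation lists 60 transcripts of para, where the deposited tables have 4.

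In cac, the presynaptic calcium channel gene, the gene sum was nearly level while the makeup moved by 50.0% between control and ablation, 46.0% between control and activation and 68.9% between activation and ablation. Its deposited fold changes against control do not match the FPKM values behind the first 2 shifts, as described below. RC and RD had the same value in control, 4.23 FPKM each, and RA and RB were listed at 0. In activation, RC was at 8.78 FPKM, or 91.6% of the gene sum, and RD at 0.529 FPKM. RG had 0.683 FPKM in control, 7.36% of the gene sum, with 0.186 FPKM in activation and 0.331 FPKM in ablation. In ablation, RA, RB, RC and RD all had 1.95 FPKM, each 22.7% of the gene sum. RC in ablation against activation, from 8.85 FPKM to 1.94 FPKM, was the 1 member transcript with an unadjusted p under 0.05 in that comparison, with p = 0.00135 (q = 0.224) in the authors' deposited table. RC in activation against control had p = 0.0577, and RD p = 0.253, in the authors' deposited table.

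Equal values above 0 in several transcripts of a gene were uncommon. In the table of control and ablation, 0.49% of the 2858 genes with 2 or more transcripts and at least 1 FPKM in both groups had such values in control and 0.28% in ablation. Of the members, para and cac had them in control and cac had them in ablation. In BDGP6, cac RA, RB, RC and RD are each 8471 bases long with 31 exons. RA and RB differ by 101 bases each, as do RC and RD, and RA and RC differ by 116 bases each, as do RB and RD. The 4 transcripts thus combine 2 alternative stretches, 1 of 101 bases and 1 of 116 bases, each in 2 forms of equal length. What sets the equal values was not tested.

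For cac, the deposited fold changes also depart from the deposited levels. In ablation against control and in activation against control, the log2 fold change in the authors' deposited table was 0.46 above the log2 ratio of the deposited FPKM values for each of the 5 cac transcripts with values above 0 in both groups. For RC in ablation against control it was -0.66 in the authors' deposited table, while the values give -1.12. For RA, listed at 0 in control, the authors' deposited table has a finite log2 fold change of 1.01. Such departures of more than 0.01 were seen in 47 of 12943 transcripts in ablation against control, from 16 genes, and in 64 of 13274 in activation against control, also from 16 genes. In ablation against activation they were seen in 29 of 13460 transcripts, from 11 genes, and cac was not among them. Of the 7 members only cac was affected, and all changes given here were computed from the FPKM values. The cac changes and makeup shifts against control, and the values of 0 for RA and RB in control, thus rest on FPKM values that the deposited fold changes contradict. Which of them is right was not tested.

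Ih had the highest level and kept its leading transcript, RI, in each group. RI held 65.6% of the gene sum in control, 36.3% in activation and 40.5% in ablation, at 18.2 FPKM, 5.39 FPKM and 9.60 FPKM. RB was second in control at 7.08 FPKM and had 1.43 FPKM in activation against 7.29 FPKM in ablation. The lower Ih gene sum in activation thus goes with lower values of both transcripts that led in control. RC and RH were listed at 0 in control and had 0.972 FPKM and 0.710 FPKM in activation and 4.87 FPKM and 1.91 FPKM in ablation, and RE was listed at 0 in control and ablation and had 2.05 FPKM in activation. RF had 2.44 FPKM in control, 4.30 FPKM in activation against 0.0200 FPKM in ablation. The lowest p of an Ih transcript over the 3 comparisons was 0.0993, for RH in ablation against control, in the authors' deposited table. In BDGP6, RI is 2383 bases long and RB 8900 bases, and they share 2239 bases, so most of RI lies within RB.

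tipE and Ca-alpha1T each had 1 transcript that held nearly the whole gene sum. tipE RB was at 9.995 FPKM in control, 7.17 FPKM in activation against 8.81 FPKM in ablation. RA of tipE was at 0.830 FPKM in control, 7.67% of the gene sum, and under 0.001 FPKM in activation and ablation. Ca-alpha1T RB held 99.9% of its gene sum in each group, and RC stayed under 0.004 FPKM. The gene sum of tipE changed by -0.27 on the log2(FPKM + 1) scale between control and ablation, and RB alone by -0.16.

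**Figure D3:**
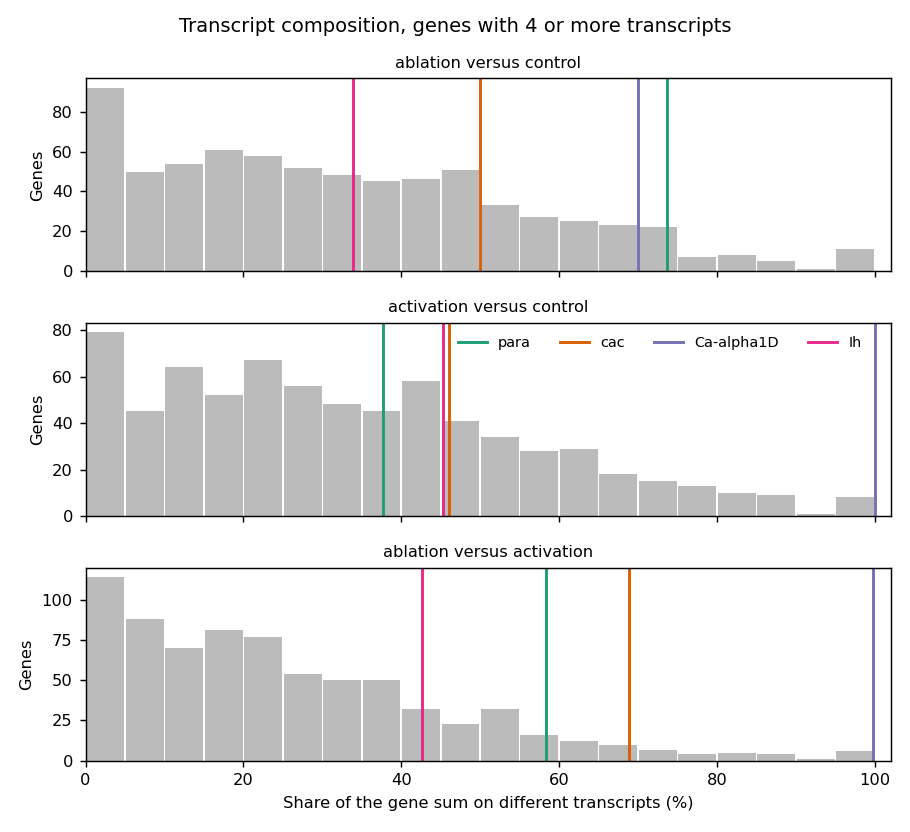
Number of genes with 4 or more transcripts and at least 1 FPKM in both groups (grey bars, 5% bins) by the share of the gene sum on different transcripts (%), in 3 comparisons, with para, cac, Ca-alpha1D and Ih as vertical lines. The Ca-alpha1D line stands near 100% in both comparisons with activation, and all 4 lines lie above the medians of 29.0%, 29.3% and 20.8%. The cac lines against control rest on FPKM values that its deposited fold changes do not match.

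Genes that work with these channels were described from a list of 21, of which 20 were found. None of their transcripts was called: 0 of 40 tested transcripts in ablation against control, 0 of 44 in activation against control and 0 of 42 in ablation against activation, where 0.154%, 0% and 0.37% of all tested transcripts were. At an unadjusted p under 0.05 there were 0 of 40, 1 of 44 and 0 of 42, against 2.05%, 3.05% and 3.21% of all tested transcripts. Of the 20 gene sums 16 were higher in ablation than in control, 12 were higher in activation than in control, and 14 were higher in ablation than in activation, where 56.7%, 56.9% and 51.1% of all genes with at least 1 FPKM in either group were. Their median changes were 0.24, 0.21 and 0.20 on the log2(FPKM + 1) scale, beside 0.11, 0.11 and 0.01 over all these genes.

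Of the 5 sodium channel relatives and auxiliary subunits (NaCP60E, a second sodium channel-like gene, and the tipE homologues Teh1 to Teh4), 4 were higher in value and 1 lower in each comparison. Teh3, the highest of them in control, had 25.3 FPKM in control against 4.27 FPKM in ablation (p = 0.247 in the authors' deposited table), and 24.6 FPKM in control against 3.56 FPKM in activation (p = 0.180 in the authors' deposited table). Teh2, named after its values were seen, had 3.13 FPKM in control against 26.7 FPKM in ablation (p = 0.277 in the authors' deposited table), and 3.06 FPKM and 13.8 FPKM in activation (p = 0.362 in the authors' deposited table). These are the widest changes in value among the partners, in opposite directions, and neither passed the test. The tipE family thus had members with lower and with higher values than control in both manipulated groups, and the change of tipE itself lay between those of Teh3 and Teh2.

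Of the 3 calcium channel auxiliary genes found, stj and stol, which encode alpha2-delta subunits, were higher in value in both manipulated groups than in control, and Ca-beta, the beta subunit gene, was lower. Ca-beta had 12.6 FPKM in control against 7.39 FPKM in ablation, and 12.3 FPKM in control against 8.62 FPKM in activation. Of the 3 genes of the na channel complex, unc79, unc80 and Mid1 were all lower in value in activation than in control and all higher in ablation than in activation, as na was. In ablation against control they did not go together: na was higher in value, while unc80 had 7.64 FPKM in control against 4.34 FPKM in ablation, unc79 was nearly level at 6.97 FPKM and 6.98 FPKM, and the median log2 change of the 3 genes was 0.0028. Mid1, the highest of them in control, had 10.3 FPKM in control against 9.69 FPKM in activation, then 9.76 FPKM in activation against 12.4 FPKM in ablation in the direct table. The 3 genes had median log2 changes of -0.39 in activation against control and 0.32 in ablation against activation, and no transcript had an unadjusted p under 0.05.

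The 4 RNA regulators of para (Adar, which edits its RNA, the helicase gene mle, the splicing factor gene ps and the translational repressor gene pum) had median log2 changes of 0.18 in ablation and 0.19 in activation against control, with 3 of 4 higher in value in each. Adar, named after its values were seen, had 12.7 FPKM in control against 25.3 FPKM in ablation, and 12.5 FPKM in control against 26.02 FPKM in activation. mle, the 1 with lower values and the highest of them in control, had 50.8 FPKM in control against 48.5 FPKM in ablation, and 49.4 FPKM and 38.8 FPKM in activation. Of the 5 active zone partners of cac, 5 were higher in value in ablation than in control and 3 in activation. unc-13, a priming factor of synaptic vesicles and the highest of these in control, had 38.2 FPKM in control against 66.4 FPKM in ablation, and 37.2 FPKM in control against 60.1 FPKM in activation. Its RA transcript, at 7.88 FPKM in control against 25.8 FPKM in activation, was the 1 partner transcript with an unadjusted p under 0.05, with p = 0.0253 (q = 0.915) in the authors' deposited table. All 5 neuron markers were also higher in value than control in both manipulated groups, with medians of 0.24 in each, and their part was not tested.

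**Figure D4:**
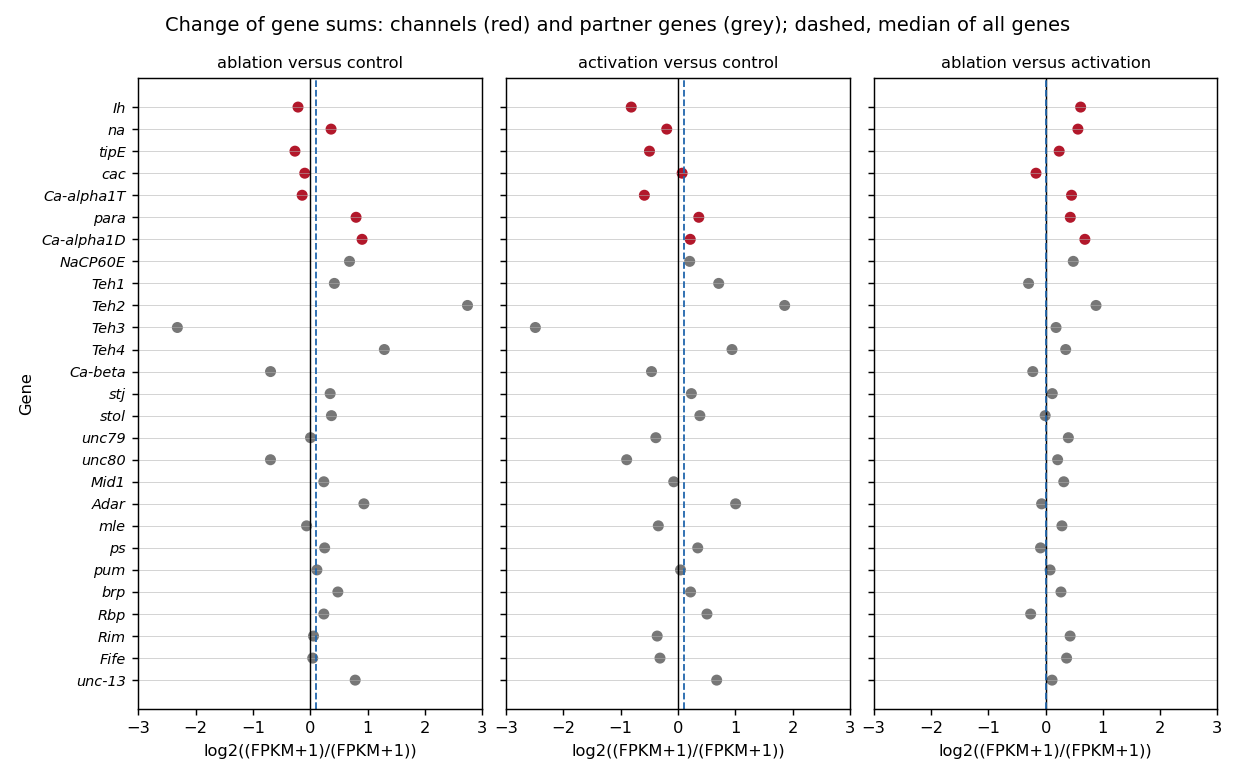
Change of the gene sums on the log2(FPKM + 1) scale in 3 comparisons, for the 7 channel genes (red) and 20 partner genes (grey), with the median of all genes of at least 1 FPKM as a dashed line. No transcript of these genes was called. Teh2 and Teh3 lie farthest from 0 in the comparisons with control.

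The genes whose pattern over the 3 groups was nearest to para and cac were found by the distance between pairs of log2 changes, activation against control and ablation against control, among 7952 genes of at least 1 FPKM in each group. Nearest to para were Dera, RpS15Ab, CG15743, Sptr and stac, at distances of 0.0083 to 0.037, and 327 genes lay within 0.25. Nearest to cac were Taldo, Fas1, Kcmf1, RpS12 and CG31473, at distances of 0.0059 to 0.016, and 1248 genes lay within 0.25. Each distance rests on 2 ratios with a shared control, and for cac on FPKM values that its deposited fold changes do not match.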

How the data were processed

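The authors deposited 3 Cuffdiff tables (control with ablation, control with activation, activation with ablation) with 21081 transcripts each. TopHat2, Cufflinks and Cuffdiff and the build dm3 are named, without versions or annotation, per the submitters' processing notes. The authors' FPKM values are 1 per group, and the deposited log2 fold change, test statistic (a score), p-value and q-value are Cuffdiff's, from both samples of a group. Sequencing depth is unknown, so no count interval is given.

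Gene sums add the FPKM of transcripts sharing a CG number. Changes are log2((FPKM + 1)/(FPKM + 1)), which understates changes of low genes. The deposited q-values were recomputed by Benjamini-Hochberg over the tested transcripts and differed by at most 5.15e-07, after the routine was tested on simulated data. Genes were named from the RefSeq table of a later build, without its coordinates. ps, Rbp and Fife were summed over the 2, 2 and 3 older CG numbers that it joins. Ma2d had no match. All members were named by gene sum and by transcripts of at least 0.5 FPKM or p under 0.05. The rule for naming partners was a transcript with p under 0.05 or the highest control gene sum of their list. Values of Teh2, Adar, unc79 and unc80 were given outside this rule. Members and lists were chosen with earlier results of these data known. Alternatives were q thresholds of 0.1 and 0.01, a minimum of 1 FPKM, adjustment over 3 tables, pseudocounts of 0.1 and 5, centring, the leading transcript, and values from the other tables. Computations used matplotlib 3.10.9, numpy 2.4.6, scipy 1.17.1 and pandas 2.3.3 under Python 3.11.15.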

Additional observations from a re-analysis of the deposited data

How the results depend on the processing

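The 0 channel transcripts called in activation against control became 1 (Ca-alpha1D RD) with a q threshold of 0.1 and 1 with the adjustment over all 3 tables. The other counts of called channel and partner transcripts stayed at 0 under each alternative run. The counts of higher gene sums stayed within 1.5 times, and the median changes kept their sign. Of 105 values of single members under alternatives, 10 moved by more than 0.58 on the log2 scale or changed sign, 9 of them with the leading transcript in place of the gene sum, and 1 changed sign (cac in activation against control, by centring). No paired analysis was possible because the tables hold 1 value per group, and leaving out a replicate was not run for the same reason. Read depth is unknown, so no error can be given for the transcript shares.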
